A study of Homo sapiens with 40 samples.

Results

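Downstream of PVT1, at the distal end of the ectopic CENP-A domain of chromosome band 8q24, the 6 replicated peak lists of this study held 399 of their 5748 CENP-A peaks. These are all peaks on chromosome 8 of hg19 that start between 129.2 and 129.7 Mb, an interval of 500 kb. The rule uses position and no peak value, but the limits were set with the extent of the 8q24 peaks already known. They numbered 26 in control, 90 after DAXX knockdown, 35 after HIRA knockdown, 96 after HJURP knockdown, 47 after HIRA+DAXX knockdown and 105 after HIRA+HJURP knockdown. The 399 peaks are not 399 separate places, since the same sequence can carry a peak in several lists, and together they covered 180.4 kb at least once.

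CENP-A is the histone H3 variant that marks centromeres and on which the kinetochore is built. HJURP is the chaperone that deposits it there. HIRA and DAXX are chaperones of the replacement histone H3.3, and HIRA works mostly at active chromatin and DAXX mostly at repeats and heterochromatin. In tumor cells that make too much CENP-A, some of it is found on chromosome arms. Band 8q24 carries the oncogene MYC and, next to it, the long noncoding RNA (lncRNA) gene PVT1, a neighbour that is often gained together with MYC in cancer. Beyond PVT1 lies a long stretch with no protein-coding gene.

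The cells were of the established colon cancer line SW480, of human origin, and all were transfected by electroporation and grown for 72 hours. The groups were control cells, which the sample labels call untreated and the methods of the study describe as given a control siRNA, siDAXX, siHIRA and siHJURP as single knockdowns, and HIRA+DAXX and HIRA+HJURP as double knockdowns. Native chromatin was cut with MNase and precipitated with ACA serum, which is human serum positive for centromere antibodies, and an input library was made for each ChIP. Because such a serum can bind more than 1 centromere protein, a peak is CENP-A as the study names it, and the serum alone does not tell the proteins apart. There were 4 ChIP libraries each for control and the single knockdowns and 2 each for the double knockdowns, so that of 40 libraries 20 were ChIP and 20 input. Each condition was deposited as 1 merged list of peak positions, with no height, read count, score or replicate. No difference below therefore has a replicate error or a test, the read depth behind a single peak is unknown, and the intervals given beside percentages of peaks allow for counting error alone. The study reports that the MYC locus is amplified in SW480 cells. In mitotic cells it also counted more copies of this locus per cell after HJURP knockdown than in control. It describes no such count for the other knockdowns. The depletion of the 3 chaperones, the number of DNA copies of the locus and the limits of the amplified segment cannot be read from the lists. Their part in the values below, the shared distal edge included, was not tested.

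Peaks were more frequent downstream of PVT1 in all 5 knockdown lists than in control, but the covered sequence was not larger in all of them. Relative to the 26 control peaks, the number was 3.46 times as high after DAXX knockdown, 3.69 times after HJURP knockdown and 4.04 times after HIRA+HJURP knockdown. It was 1.35 times as high after HIRA knockdown and 1.81 times after HIRA+DAXX knockdown. Peak coverage, the sum of peak lengths, was 30.0 kb in control. The DAXX and HJURP knockdown lists covered 156.8 and 158.3 kb, which is 5.23 and 5.28 times control. The HIRA knockdown list covered 57.3 kb, or 1.91 times control, and the HIRA+HJURP list 98.1 kb, or 3.27 times control. The HIRA+DAXX list, with more peaks than control, covered 21.5 kb, which is 0.719 times control. These directions are not particular to the interval. Over all replicated ectopic peaks the study also gives less coverage than control for HIRA+DAXX and more for the other knockdowns. The ratios above were not scaled to the coverage of the whole lists. Of the sequence between the start of the interval and the last peak, control peaks took up 7.18%, DAXX knockdown peaks 37.6%, HIRA knockdown peaks 13.7%, HJURP knockdown peaks 37.9%, HIRA+DAXX peaks 5.16% and HIRA+HJURP peaks 23.5%.

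The counts depend on what they are set against. With only peaks of at least 500 bp, the HIRA+DAXX list was below control, with a count ratio of 0.7. As a share of all deposited peaks of each list, the interval held 6.37% in control, 9.45% after DAXX knockdown and 10.2% after HJURP knockdown. It held 4.13% after HIRA knockdown, 4.62% after HIRA+DAXX knockdown and 6.64% after HIRA+HJURP knockdown. On that scale the HIRA and HIRA+DAXX lists were below control, with ratios of 0.648 and 0.724. When neighbouring peaks within 10 kb of each other were counted as 1 site, the lists had 6 sites in control, 8 after DAXX, 7 after HIRA, 9 after HJURP, 9 after HIRA+DAXX and 8 after HIRA+HJURP knockdown.

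The median width of the peaks over the interval was lowest in the double knockdowns. Control peaks ranged from 243 to 3084 bp with a median of 919.5 bp. After DAXX knockdown the range was 198 to 8993 bp and the median 1269.5 bp. After HIRA knockdown it was 333 to 5404 bp with a median of 1320 bp, and after HJURP knockdown 253 to 10466 bp with a median of 1133 bp. The median was 360 bp in the HIRA+DAXX list, in which the widths ran from 124 to 1530 bp, and 550 bp in the HIRA+HJURP list, from 123 to 8064 bp. Thus the ranges of all lists overlapped, and the medians of both double knockdowns lay below that of control. Peaks under 500 bp made up 23.1% of the control list, 12.2%, 14.3% and 12.5% of the DAXX, HIRA and HJURP lists, 70.2% of the HIRA+DAXX list and 48.6% of the HIRA+HJURP list. Peaks of at least 2000 bp numbered 4 in control, 20 after DAXX, 10 after HIRA, 23 after HJURP and 11 after HIRA+HJURP knockdown, and the HIRA+DAXX list had 0. Condition and number of libraries cannot be told apart here, since both double knockdowns were merged from 2 libraries, sequenced only as single reads, and all other lists from 4. For HIRA+HJURP the order was not the same throughout. In the most distal cluster, described further on, its median was above that of control, with 1698.5 against 961 bp, and over peaks of at least 500 bp in the whole interval both were close, with 1010 against 1062.5 bp.

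**Figure D1:**
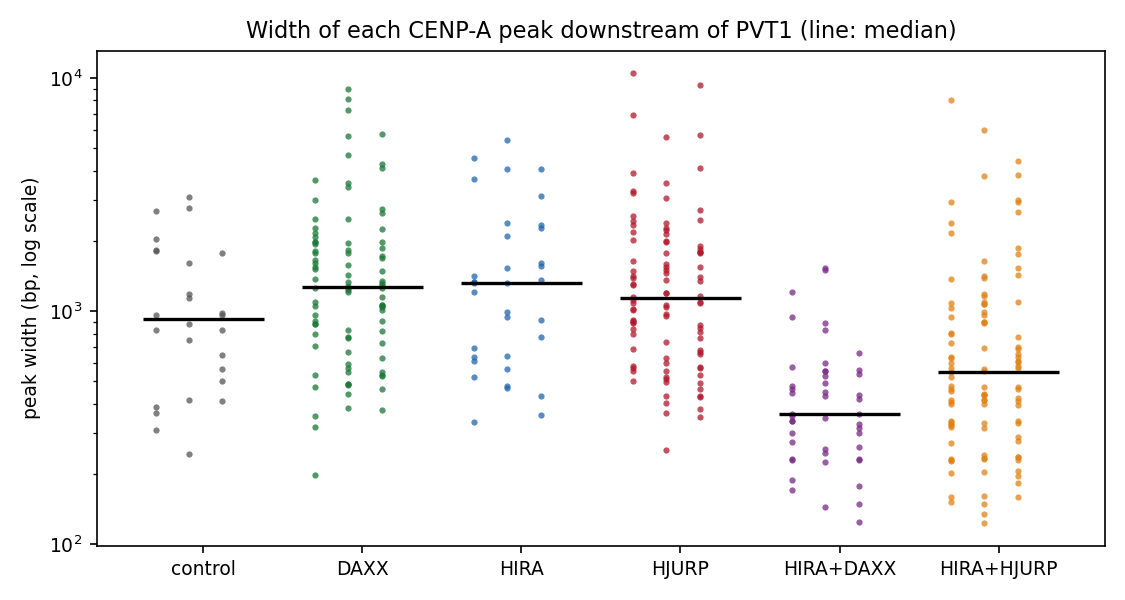
Width in bp, on a log scale, of each CENP-A peak downstream of PVT1 in the 6 lists. Each point is 1 peak, its sideways position has no meaning, and the black line is the median, which lies at 360 bp for HIRA+DAXX and 550 bp for HIRA+HJURP and between 919.5 and 1320 bp for the other lists.

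The widest peak of each list was not at 1 shared place. In control it lay on chromosome 8 of hg19 from 129290678 to 129293761, outside annotated genes, and after DAXX knockdown from 129270540 to 129279532, also outside genes. The widest peaks of the other 4 lists all lay near the distal edge and also outside genes. They ran from 129599145 to 129604548 after HIRA knockdown, from 129594639 to 129605104 after HJURP knockdown and from 129597492 to 129605555 after HIRA+HJURP knockdown, and these 3 overlap. In the HIRA+DAXX list the widest peak ran from 129612051 to 129613580.

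The spacing of the peaks was wider in the 3 lists with fewer peaks, which follows in part from the numbers themselves. The median gap from the end of a peak to the start of the next was 2818 bp in control, 2659 bp after HIRA knockdown and 1779 bp after HIRA+DAXX knockdown. It was 815 bp after DAXX, 818 bp after HJURP and 794.5 bp after HIRA+HJURP knockdown. In these last 3 lists most gaps were no longer than 1000 bp, with 49 of 89, 54 of 95 and 58 of 104. In control such short gaps were 5 of 25, after HIRA knockdown 9 of 34 and after HIRA+DAXX knockdown 14 of 46. With peaks within 1000 bp of each other merged, the counts were 1.95, 2 and 2.24 times control after DAXX, HJURP and HIRA+HJURP knockdown, so that much of their excess in number lay in closely spaced peaks.

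The first peaks of the interval also differed. Proximal to the interval, towards MYC, the last peak of control ended at 129144819, and the next control peak, the first one downstream of PVT1, lay from 129228266 to 129230096, after a gap of 83.4 kb that crosses the 3′ end of PVT1. The HIRA and HIRA+DAXX lists had nearly the same gap, 83.4 and 84.2 kb, with first peaks from 129228206 to 129229539 and from 129229021 to 129229499. In the DAXX list the first peak lay from 129200105 to 129201199 and in the HJURP list from 129200083 to 129201169, 3.96 and 2.83 kb after the previous peak. The HIRA+HJURP list began at 129209285 with a peak that ended at 129209601, 12.04 kb after the previous one. PVT1 itself ends at 129199347, 0.653 kb before the interval, so the limit alone kept the first peaks out of the gene as annotated. The previous peaks of all 6 lists lay inside PVT1. Those of the DAXX, HJURP and HIRA+HJURP lists ended at 129196143, 129197257 and 129197249. Which peak counts as the first is thus set in part by the limit.

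At the other end, all 6 lists stopped at the same place. The last peak ended at 129617129 in control, at 129617235 after HIRA+HJURP, at 129617249 after HIRA and after HIRA+DAXX, at 129617254 after DAXX and at 129617268 after HJURP knockdown. The 6 ends lay within 139 bp, and without control within 33 bp. No list had any further peak on chromosome 8, neither in the 82.7 kb left to the end of the interval nor in the 16.7 Mb left to the end of the chromosome. The starts of these last peaks lay further apart, although those of control and HIRA were close. The last peak was 884 bp wide after HIRA+DAXX (from 129616366), 1186 bp in control (from 129615944) and 1320 bp after HIRA knockdown (from 129615930). It was 2251 bp wide after DAXX (from 129615004), 2943 bp after HIRA+HJURP (from 129614293) and 9340 bp after HJURP knockdown (from 129607929). In the last 10 kb before the edge, peaks covered 41.1% of the sequence in control and in HIRA+DAXX, 74.1% after HIRA, 88.8% after DAXX, 89.3% after HIRA+HJURP and 93.4% after HJURP knockdown. The edge rests on 1 peak per list. The second last peaks ended between 129614088 and 129614881 in 5 of the lists, and at 129605717 after HJURP knockdown, in which the last peak spans the place where the other lists have more than 1.

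**Figure D2:**
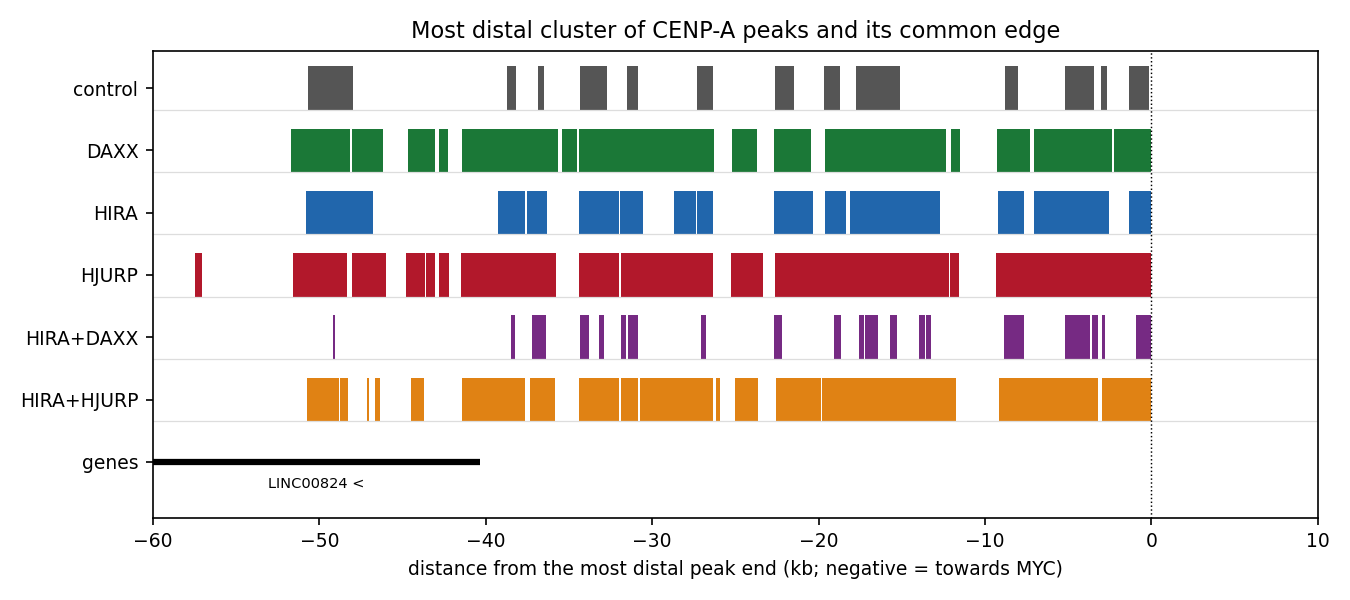
The most distal cluster of CENP-A peaks in the 6 lists, drawn to scale against the distance in kb from the most distal peak end, negative towards MYC, with the start of LINC00824 below. Each coloured box is 1 peak, and the last box of all 6 lists stops within 139 bp of the dotted line while the starts of these boxes lie further apart.

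The outer limits of other groups of peaks downstream of PVT1 differed more among the lists. When the peaks of all lists were joined wherever they lay within 10 kb of each other, 8 clusters resulted, and 3 of them held peaks of all 6 lists. The proximal one of these ran from 129224645 to 129381886, the middle one from 129398822 to 129434584 and the most distal one from 129559814 to 129617268. The position of the first peak differed among lists by 4.38 kb in the proximal cluster, 27.6 kb in the middle and 8.30 kb in the most distal cluster. The position of the last peak differed by 4.21 kb in the proximal and 4.75 kb in the middle cluster, against 0.139 kb in the most distal one. The opposite end of the whole 8q24 segment of peaks, its proximal edge, differed by 1.44 kb among the lists. The clusters were made from these lists, so that these values are a description. A cluster limit moves whenever a list has a further peak there, and single peaks inside a cluster could end as close together. In the proximal cluster, for example, a peak of all 6 lists ended between 129375250 (HIRA+DAXX) and 129375310 (DAXX). Close agreement of peak ends was therefore not particular to the distal edge.

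The nearest annotated features do not coincide with the edge. CCDC26, an lncRNA gene on the minus strand that ends at 129646445, was 29.2 kb further on, and no list had a peak in its annotated body. LINC00824, the last gene before the edge, has its start site at 129576925, 40.3 kb away. MYC, which codes for a transcription factor that drives growth, ended 0.862 Mb before the edge. The next protein-coding gene beyond it, GSDMC, a gasdermin family member, was 1.14 Mb away.

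In the most distal cluster the number of peaks was nearly equal in control and the single knockdowns and higher after HIRA+DAXX knockdown, while the widths differed among all lists. The 57.5-kb cluster held 13 peaks in control, 14 after DAXX, 13 after HIRA, 13 after HJURP, 21 after HIRA+DAXX and 16 after HIRA+HJURP knockdown. Equal numbers did not mean the same peaks made wider. In each single knockdown list some peaks here spanned more than 1 control peak and others touched none. The HJURP peak from 129607929 to 129617268 spanned the control peaks from 129608496 to 129617129, whereas that from 129592034 to 129593934 touched none. The mean width was 1215 bp in control, 3060 bp after DAXX, 2256 bp after HIRA, 3384 bp after HJURP, 495.0 bp after HIRA+DAXX and 2377 bp after HIRA+HJURP knockdown. Coverage was 15.8 kb in control and 42.84, 29.33 and 43.99 kb after DAXX, HIRA and HJURP knockdown, ratios of 2.71, 1.86 and 2.78. The HIRA+HJURP list covered 38.0 kb of the cluster, 2.41 times control. In the HIRA+DAXX list the larger number came with 10.4 kb, which is 0.658 times control.

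The proximal cluster behaved otherwise. There the number of peaks was 10 in control, 45 after DAXX, 18 after HIRA, 59 after HJURP, 21 after HIRA+DAXX and 68 after HIRA+HJURP knockdown. The mean widths were 1.57, 1.20 and 1.26 times that of control after DAXX, HIRA and HJURP knockdown, and 0.378 and 0.641 times after HIRA+DAXX and HIRA+HJURP knockdown. Coverage of this cluster was 10.9 kb in control and 77.0, 23.5, 81.3, 8.66 and 47.5 kb in the DAXX, HIRA, HJURP, HIRA+DAXX and HIRA+HJURP lists. For DAXX and HJURP these values are 7.07 and 7.46 times control. In the middle cluster the same ratios were 7.52 for DAXX and 7.04 for HJURP, with 3 peaks in control, 16 after DAXX and 13 after HJURP knockdown. Because the most distal cluster held 52.7% of the control coverage but 27.3% of that of DAXX and 27.8% of that of HJURP, the ratios for the interval without it were 8.04 and 8.06.

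**Figure D3:**
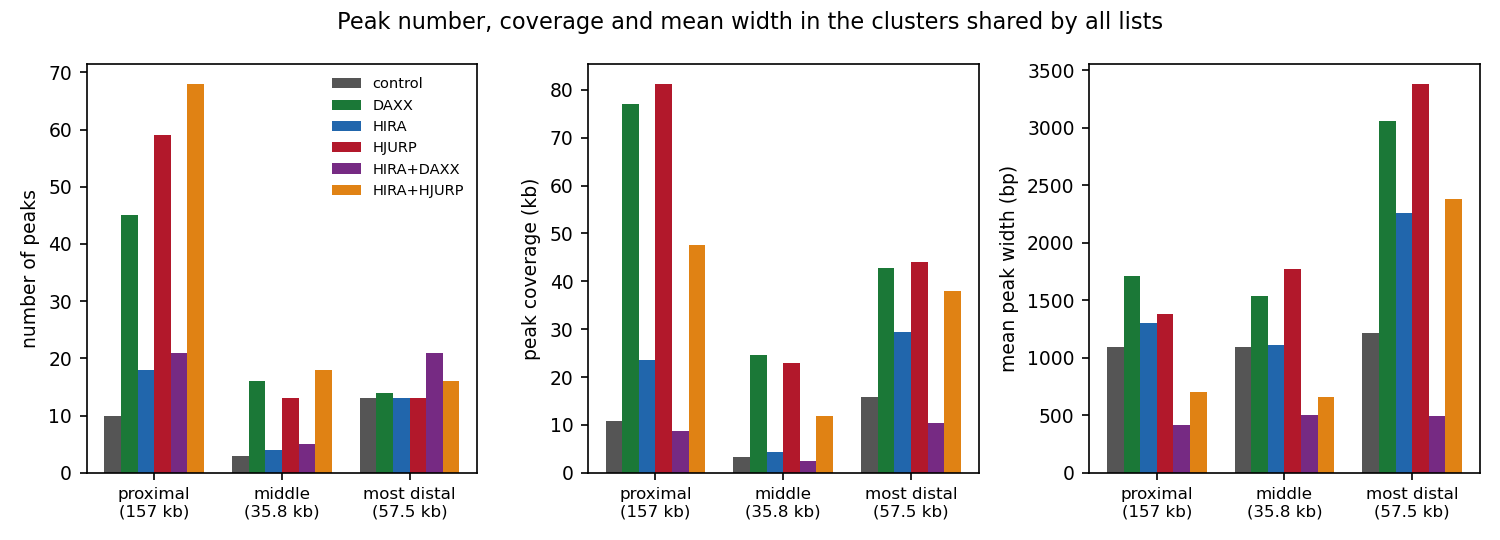
Number of peaks, peak coverage in kb and mean peak width in bp (bars, 1 value per list, no error available) in the 3 clusters of peaks that all 6 lists share. In the most distal cluster the number of peaks lies between 13 and 21 while the mean width ranges from 495.0 to 3384 bp, and in the proximal cluster the number ranges from 10 to 68.

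Between the middle and the most distal cluster lay a stretch of 125.2 kb, from 129434585 to 129559813, in which control, HIRA and HIRA+DAXX had no peak. It lies wholly within the annotated body of LINC00824. DAXX knockdown had 10 peaks there with 8.39 kb, or 6.70% of the stretch, HJURP knockdown 9 peaks with 6.48 kb, or 5.18%, and HIRA+HJURP knockdown 2 peaks with 0.384 kb. The longest gap between neighbouring peaks of each list lay in or across this stretch, with 136.5 kb in control, 132.8 kb after HIRA and 138.3 kb after HIRA+DAXX knockdown. It was 47.6 kb after DAXX, 27.8 kb after HJURP and 74.1 kb after HIRA+HJURP knockdown. A further small cluster at the proximal limit, from 129200083 to 129210974, was likewise found in the DAXX, HJURP and HIRA+HJURP lists alone, with 5, 2 and 1 peaks. The limit cuts this cluster off, since the DAXX and HJURP lists had a peak 3.96 and 2.83 kb before it. Its start and its numbers of peaks therefore depend on the limit. A list with no peak does not show that CENP-A was absent, since a peak had to pass the caller's threshold and, where the rule is stated, to be found in at least 3 replicates.

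Most peaks after DAXX, HJURP and HIRA+HJURP knockdown were new, in the sense that they shared no base with a control peak. After DAXX knockdown 72 of 90 were new (80%, 95% Wilson interval 70.6% to 87.0%), where 68.6% of all DAXX knockdown peaks on all chromosomes were. After HJURP knockdown 79 of 96 were new (82.3%, 73.5% to 88.6%), beside 66.2% over all chromosomes. After HIRA+HJURP knockdown 82 of 105 were new (78.1%, 69.3% to 84.9%), beside 64.6%. The share was 42.9% after HIRA knockdown (15 of 35, 28.0% to 59.1%), beside 56.4%, and 36.2% after HIRA+DAXX knockdown (17 of 47, 23.97% to 50.46%), beside 49.9%. The shares over all chromosomes include these same peaks, neighbouring peaks are not independent counts, and the differences from them were not tested.

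**Figure D4:**
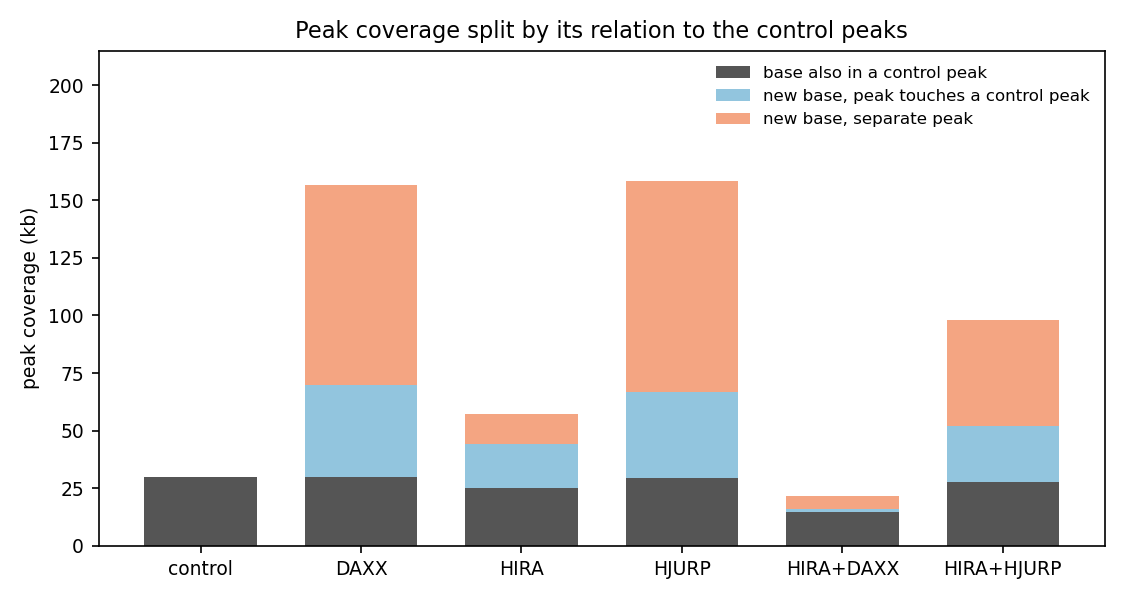
Peak coverage in kb of each list downstream of PVT1 (bars from 0), split into bases that also lie in a control peak, new bases in peaks that touch a control peak and new bases in separate peaks. In the DAXX and HJURP lists the separate peaks make up most of the bar, with 87.0 and 91.5 kb, and in the HIRA list the new bases lie mostly next to control peaks, with 19.0 against 13.1 kb.

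New bases had 2 sources, the extension of control peaks and separate peaks. After DAXX knockdown 40.1 kb of new bases lay in peaks that touched a control peak and 87.0 kb in separate peaks. After HJURP knockdown the values were 37.3 and 91.5 kb, and after HIRA+HJURP knockdown 24.4 and 46.0 kb. After HIRA knockdown the order was the other way round, with 19.0 kb in peaks that touched control and 13.1 kb in separate ones. HIRA+DAXX had 1.67 and 5.41 kb. In all 5 lists the peaks that touched control were wider than the new ones, with medians of 3264 against 1059.5 bp after DAXX, 1588 against 691 bp after HIRA, 3051 against 1014 bp after HJURP, 447.5 against 300 bp after HIRA+DAXX and 1528 against 430.5 bp after HIRA+HJURP knockdown. A wide peak is more likely to touch any other peak, so this order follows in part from the definition. New peaks of the DAXX list lay a median of 12.2 kb and at most 54.2 kb from the nearest control peak, and those of the HJURP list 9.53 and 67.3 kb. The medians were 5.27 kb after HIRA, 1.43 kb after HIRA+DAXX and 6.00 kb after HIRA+HJURP knockdown.

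Nearly all control peaks were found again. At least 1 base of all 26 was covered after DAXX knockdown (86% over all chromosomes), after HJURP knockdown (81.6%) and after HIRA+HJURP knockdown (83.8%). After HIRA knockdown 22 of 26 were touched, or 84.6%, which is near the 84.3% over all chromosomes. After HIRA+DAXX knockdown 23 of 26 were touched, or 88.5%, beside 74.8%. The lists differed in how much of each peak was covered. Of the control bases 99.4% were covered after DAXX, 98.2% after HJURP, 92.3% after HIRA+HJURP, 84.1% after HIRA and 48.3% after HIRA+DAXX knockdown. The peaks covered from end to end numbered 21, 21, 16, 14 and 3 in the same order. A single knockdown peak joined 2 or more control peaks in 7 cases after DAXX, 6 after HJURP, 5 after HIRA+HJURP, 2 after HIRA and 0 after HIRA+DAXX knockdown.

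The control peaks that were not found again all lay in the proximal cluster. A control peak of 1810 bp, from 129287601 to 129289410, and one of 415 bp, from 129366629 to 129367043, were touched neither after HIRA nor after HIRA+DAXX knockdown. Those from 129270793 to 129271672 and from 129365733 to 129366563 were missed after HIRA knockdown, and the one from 129275048 to 129275873 after HIRA+DAXX knockdown. All 13 control peaks of the most distal cluster and all 3 of the middle cluster were touched in all 5 knockdown lists. These peaks were named after their values had been seen.

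Set against each other, the DAXX and HJURP lists were much alike downstream of PVT1. They shared 136.4 kb, which is 87.0% of the DAXX and 86.2% of the HJURP coverage, and 72 of 90 DAXX peaks touched an HJURP peak as did 79 of 96 HJURP peaks a DAXX peak. The HIRA list lay mostly within both, with 96.9% of its bases in DAXX peaks and 96.2% in HJURP peaks, though it took up only 35.4% and 34.8% of their coverage. Lists that cover more sequence must share more with others, and no random placement was drawn here. The same shares over all chromosomes were not computed, so the likeness is not shown to be particular to this interval.

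The HIRA+DAXX peaks lay within those of the single DAXX knockdown. All 47 of its peaks lay wholly inside DAXX knockdown peaks and took up 13.7% of their bases. Nesting was not limited to the single knockdowns of the same chaperones, since 46 of the 47 also lay wholly inside HJURP knockdown peaks, and 98.1% of their bases lay in HIRA+HJURP peaks. Inside HIRA knockdown peaks lay 36 of the 47. Its coverage was 0.137 times the DAXX and 0.376 times the HIRA knockdown value, and its count 0.522 and 1.34 times theirs. Up to 7 HIRA+DAXX peaks lay in 1 DAXX knockdown peak. The HIRA+HJURP list shared 94.1 kb with the HJURP list, which is 96.0% of its own and 59.5% of the HJURP coverage, and 76 of its 105 peaks lay wholly inside HJURP peaks. Its coverage was 0.620 times that of HJURP, while the count was 1.09 times as high. The doubles and singles differ in library number and read mode as well as in condition. For these pairs of lists too the shares over all chromosomes were not computed, so the nesting may not be particular to this interval.

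Few bases were held in common by all lists. Of the 180.4 kb covered by any list, 13.4 kb or 7.43% lay in peaks of all 6, and 34.9 kb or 19.4% in peaks of a single list. Bases of control alone came to 0.031 kb, of HIRA alone to 0.067 kb and of HIRA+DAXX alone to 0 kb, against 16.9 kb for DAXX alone and 16.5 kb for HJURP alone. A further 38.8 kb lay in DAXX and HJURP peaks and in no other list, and 37.4 kb in these plus HIRA+HJURP. The bases common to all 6 lists formed 28 stretches, 18 of them in the most distal cluster, where 60.4% of the common bases lay. The widest one ran from 129612064 to 129613580, 1517 bp long and outside annotated genes, and ended 3.69 kb before the distal edge. It is most of a control peak of 1781 bp and, but for a few bases, the widest HIRA+DAXX peak. Bases in all 5 knockdowns and not in control came to 4.74 kb in 24 stretches, and the widest, from 129371584 to 129372138, was 555 bp long and lay in the lncRNA gene ENSG00000286034.

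Of the 4 genes annotated at least partly in the interval, 3 code for lncRNAs and 1 for a 7SK RNA pseudogene, and none for a protein. The pseudogene RN7SKP226, from 129232750 to 129233049 on the plus strand, had no peak in any list, with the nearest peak 2.65 kb from its start in control and 0.323 to 0.937 kb in the knockdowns. CCDC26 had none either. Peaks therefore lay in ENSG00000286034, an lncRNA gene without a symbol that runs from 129335377 to 129400882 on the plus strand, in LINC00824, an lncRNA gene from 129417515 to 129576925 on the minus strand, or outside genes.

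ENSG00000286034 carried 5 peaks in control, 14 after DAXX, 5 after HIRA, 14 after HJURP, 9 after HIRA+DAXX and 21 after HIRA+HJURP knockdown. Covered were 3.77% of the gene in control, 34.7% after DAXX, 7.68% after HIRA, 35.1% after HJURP, 4.52% after HIRA+DAXX and 25.2% after HIRA+HJURP knockdown. Its exons, 977 bp in all, held a peak in the DAXX, HJURP and HIRA+HJURP lists and in none of the others. There 768, 671 and 82 bp of exon were covered, or 78.6%, 68.7% and 8.39%. No list had a peak on its start site. The nearest one lay 1.56 kb away after DAXX, 6.07 kb after HJURP, 12.5 kb after HIRA+HJURP, 17.9 kb after HIRA+DAXX, 23.7 kb after HIRA knockdown and 26.8 kb in control.

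LINC00824 carried 4 peaks in control, 23 after DAXX, 4 after HIRA, 22 after HJURP, 6 after HIRA+DAXX and 17 after HIRA+HJURP knockdown. Of its length 3.78% was covered in control, 18.3% after DAXX, 5.11% after HIRA, 16.5% after HJURP, 1.64% after HIRA+DAXX and 8.78% after HIRA+HJURP knockdown. Of its exon bases 7.79% were covered in control and 34.2%, 7.66%, 38.8%, 4.63% and 25.3% in the knockdowns in the same order. In control, HIRA and HIRA+DAXX all of these peaks lay towards the ends of the gene, in the middle and most distal clusters. Of the 23 DAXX peaks 10 lay in the inner stretch between these clusters, as did 9 of the 22 HJURP and 2 of the 17 HIRA+HJURP peaks.

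The start site of LINC00824 at 129576925 was under a peak in 3 of the 6 lists. These were the DAXX list, with a peak of 5767 bp from 129575833 to 129581599, the HJURP list, with 5701 bp from 129575793 to 129581493, and the HIRA+HJURP list, with 3804 bp from 129575843 to 129579646. The nearest peak was 1602 bp away in control, 1098 bp after HIRA and 1869 bp after HIRA+DAXX knockdown. The same 3 lists had a peak on a second annotated start of the gene at 129573372, shared by 3 transcripts. A start within the gene at 129427627 was under a peak in all 6 lists, control included, and another at 129440162 in none. The lists hold no expression, so nothing follows from this for the transcripts.

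Most peaks lay outside annotated genes, with 17 of 26 in control, 53 of 90 after DAXX, 26 of 35 after HIRA, 60 of 96 after HJURP, 32 of 47 after HIRA+DAXX and 67 of 105 after HIRA+HJURP knockdown. Of the covered bases, 66.9% to 77.0% were outside genes, 22.4% to 31.6% in introns and 0.610% to 1.54% in exons. The sequence from the start of the interval to the distal edge is 46.0% outside genes, 52.6% intron and 1.40% exon.

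The sequence under the peaks was poorer in G and C than its surroundings, with 37.1% in control, 37.3% after DAXX, 36.4% after HIRA, 37.6% after HJURP, 36.8% after HIRA+DAXX and 37.3% after HIRA+HJURP knockdown. The whole interval has 39.2%, and the part up to the edge with no peak in any list 40.8%. CG dinucleotides numbered 3.48 to 4.87 per kb of peak sequence in the 6 lists against 7.06 per kb where no list had a peak. The last 10 kb before the edge have 36.8% G and C and the first 10 kb beyond it 39.8%. Among the 50 pieces of 10 kb that make up the interval, G and C content ranged from 32.9% to 44.1%. The values of the 10 kb before and beyond the edge both lie within that range. Averages over longer sequence vary less than single pieces, so the range is no measure for the peak values. For CG dinucleotides no such range is given. Low G and C content can also change how MNase cuts and how well libraries amplify, and its part was not tested. The interval held no match to the CENP-B box, the binding site of CENP-B in alpha satellite DNA and here searched on both strands by its conserved bases. Of 292 pieces of 500 kb of chromosome 8, 12.7% held a match, so an interval without one is the usual case.

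Beside the rest of the 8q24 peaks, the interval was one of several with many peaks. Per 100 kb it held 5.20 peaks in control, 18 after DAXX, 7 after HIRA, 19.2 after HJURP, 9.40 after HIRA+DAXX and 21 after HIRA+HJURP knockdown. Between 126.6 and 127.5 Mb the values were 1.56, 9.89, 5.56, 9.67, 5.44 and 14.1 in the same order. Between 127.5 and 128.2 Mb they were 4.29, 16.9, 6.86, 14, 12 and 20.7. Between 128.2 and 128.6 Mb they were 2.25, 19.25, 5.25, 18, 9.5 and 20, which for DAXX and HIRA+DAXX is above the values downstream of PVT1. Between 128.6 and 129.2 Mb, the neighbouring interval with MYC and PVT1, they were 0.333, 2.5, 0.333, 3.17, 0.333 and 3. In control 35.4% of all 8q24 peak coverage lay downstream of PVT1, and in the knockdowns 27.3% after DAXX, 25.4% after HIRA, 28.0% after HJURP, 20.3% after HIRA+DAXX and 25.4% after HIRA+HJURP. Per unit of 8q24 coverage all 5 knockdown lists were therefore below control here, whereas 4 of the 5 were above it in bases. HIRA+DAXX coverage relative to control was 1.49 between 126.6 and 127.5 Mb, 1.56 between 127.5 and 128.2 Mb, 1.69 between 128.2 and 128.6 Mb, 0.893 between 128.6 and 129.2 Mb and 0.719 downstream of PVT1. With 1 list per condition, none of these differences between intervals could be tested.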

How the data were processed

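CENP-A ChIP-Seq of SW480 cells was analysed from 6 merged peak lists, 1 per condition, assigned by the condition each list names. Per the labels and methods, the authors used Trimmomatic for trimming, Bowtie2 2.2.6 for alignment to hg19, SAMtools for a mapping quality of at least 10 and MACS for calling every ChIP library against the matching input, then merged the peaks of replicates and kept those overlapping peaks of at least 3 replicates. The rule for the double knockdowns, with 2 libraries each, is not given in the sources used here. The deposited values are positions, with no score, count or percent. More libraries can lengthen a merged peak, and read depth sets how many are called.

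Peaks of chromosome 8 starting in the interval were taken from each list. Coverage was end minus start, summed, and starts are printed counted from 1. A new peak shared no base with control. Genes came from GENCODE release 44 lifted to GRCh37, the build of the lists, in which gene parts not in exons were introns. Named were all genes in or under peaks of the interval, MYC, PVT1 and the next distal protein-coding gene, and the first, last and widest peak of each list with the widest common stretches. The members, lists and clusters were chosen with earlier results of these data known. Python 3.11.15, numpy 2.4.6, scipy 1.17.1 (Wilson 95% intervals) and matplotlib 3.10.9 were used. The 5 overlaps with control were checked with bedtools 2.31.1 and were equal, and 200 of 200 simulated sets gave the exact base counts. No test was made, because each condition is a single list. A planned share of repeat-masked sequence was not computed, as the genome used carries no masking, and no sequence of the region is printed. Alternatives were other widths, joining distances, limits, denominators and rules for sharing.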

Additional observations from a re-analysis of the deposited data

How the results depend on the processing

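Of 179 alternative values, 135 stayed within the limits set, which were 1.5 times and the same side of 1 for ratios, 1.5 times for widths and gaps, 1000 bp for the edge and the Wilson interval for shares. No paired analysis was possible because the lists hold merged peaks, 1 list per condition. Leaving out a replicate or applying a stricter score was not possible either. Of the values within the limits 30 concern the distal edge, which most alternatives could not move by construction, since they left the last peak of each list in place. The end of the second last peak lay at 129614630 in control, 129614881 after DAXX, 129614748 after HIRA, 129605717 after HJURP, 129614499 after HIRA+DAXX and 129614088 after HIRA+HJURP.

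Joining peaks within 1000 bp gave median widths of 2352, 2759 and 1093 bp for the DAXX, HJURP and HIRA+HJURP lists, median gaps of 2211.5, 2226 and 1939.5 bp for these and 2723 bp for HIRA+DAXX, count ratios to control of 1.95, 2 and 2.24, and a new share of 69.0% for HJURP. By sites within 10 kb the count ratios of DAXX, HJURP and HIRA+HJURP were 1.33, 1.5 and 1.33. These fewer and longer units follow from the joining itself.

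With only peaks of at least 500 bp, HIRA+DAXX was below control in number, at 0.7 times, had 0.411 times its coverage, a median width of 628 bp and a median gap of 13854 bp. HIRA+HJURP then had a median width of 1010 bp and a new share of 66.7%. Per deposited peak of the list, DAXX, HJURP and HIRA+HJURP had count ratios of 1.48, 1.603 and 1.04, and those of HIRA and HIRA+DAXX turned below control, at 0.648 and 0.724. Per 8q24 coverage the coverage ratios turned below control for DAXX (0.770), HIRA (0.717), HJURP (0.789) and HIRA+HJURP (0.718). Without the most distal cluster, an alternative added after seeing the data, count ratios for the DAXX, HJURP and HIRA+HJURP lists were 5.85, 6.38 and 6.85, and coverage ratios 8.04 for DAXX and 8.06 for HJURP. When a peak counted as shared only where control covered at least 50% of it, the new shares were 91.1% for DAXX, 68.6% for HIRA, 91.7% for HJURP and 87.6% for HIRA+HJURP. Beyond what joining, filters and denominators do by construction, the cause was not tested. Per the methods, read depth differed among the replicates, and reads were taken in single- or paired-end mode. How the depth and number of the libraries limit these values could not be measured from the lists.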
